A study of Mus musculus with 30 samples.

Results

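Primary mouse microglia labelled PD-1 KO were compared with microglia labelled wild type (WT) after 2 h in conditioned medium that contained amyloid-beta. The labels put 3 libraries in each group, so the comparison rests on 6 of the 30 libraries of the series, taken by their condition labels. The cells were grown from mouse brains for 5–8 days and collected by shaking them off. Both groups received the amyloid-beta medium, and the main comparison therefore holds no untreated culture. The matching untreated groups at 2 h and the amyloid-beta groups at 8 h, each with 3 libraries per genotype label, are used below only to show where the difference at 2 h with amyloid-beta departs from theirs. The targeted allele, the strain, sex and age of the mice, the medium given to untreated cultures, and whether each library of a group had its own animal or culture are not given in the sources used here. P-values from the fit measure the spread between libraries of a group, estimated from all 30 libraries of the series. That spread may therefore be technical.

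PD-1, encoded by Pdcd1, is an inhibitory receptor best known from T cells, where binding of its ligand PD-L1 (encoded by Cd274) dampens activation. Microglia are the resident macrophages of the brain. They take up amyloid-beta through scavenger, Toll-like and Fc receptors and degrade it in lysosomes. Type I interferon signals through the receptor chains Ifnar1 and Ifnar2 and the kinases Jak1 and Tyk2 to a complex that contains Stat2 and Irf9 and binds the interferon-stimulated response element before antiviral genes. Irf7 is both a target of that complex and a factor that drives interferon genes.

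Pdcd1 (chromosome 1, 94038305 to 94052553, GRCm38) was checked first, because it is the gene named in the genotype label. It lay at the floor of 1 in the 3 libraries labelled WT, and at 13.4, 6.02 and 25.3 in the 3 labelled PD-1 KO, from 14, 3 and 21 reads. The groups did not overlap, in the direction opposite to that of a lost transcript. A two-sided exact permutation test gave p = 0.1, the smallest that 3 against 3 libraries allow. With the limit of the WT group set at 3 reads over its 3 libraries, the PD-1 KO label was at least 12-fold higher. A value covers the whole gene and does not show which part of the transcript was read. All directions below are for libraries as labelled. Cd274, which encodes PD-L1, had values of 426, 536 and 575 in libraries labelled WT and 523, 586 and 621 in those labelled PD-1 KO, with a log2 difference of 0.18 ± 0.13 that did not pass (adjusted p = 0.277).

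Each value is a read count per gene that the authors scaled by library and floored at 1. Differences are log2(value + 1) in libraries labelled PD-1 KO minus WT, ± the standard error from limma. The 6 libraries held 4674920 to 10221148 reads over the genes in the table. Of 13722 genes tested, 3051 passed an adjusted p of 0.05 with higher and 2290 with lower values under the PD-1 KO label, which is 22.2% and 16.7%. With so many calls, a list of genes is read against those shares, and against a median of 0.02 over all genes.

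The largest differences among well-measured genes were in markers of other brain cells, and they bear on all that follows. All 13 astrocyte markers in the table passed as higher under the PD-1 KO label, with a median of 3.20. Gfap, the intermediate filament of astrocytes, had values of 553, 426 and 394 in libraries labelled WT and 11800, 11200 and 5880 in those labelled PD-1 KO (4.34 ± 0.34). Gja1, the connexin of astrocyte gap junctions, differed by 4.46 ± 0.35. All 18 genes of motile cilia, which in the brain mark ependymal cells, were higher, with a median of 5.66, Foxj1, the factor that drives them, by 4.42 ± 0.35, and 5 of them lay at the floor in at least 1 library labelled WT. Summed over its list, the astrocyte signal ran from 2330 to 2630 in libraries labelled WT and from 15300 to 29300 in those labelled PD-1 KO. The cilia sum ran from 152 to 341 and from 4450 to 11200. Of 20 genes shared by microglia and other macrophages, 17 were lower and 0 higher (median -0.68), and their sum ran from 155000 to 183000 in libraries labelled WT and from 91100 to 111000 in those labelled PD-1 KO. None of 14 markers of neutrophils, lymphocytes and red cells is in the table. In bulk RNA, fewer cells of a type and less RNA per cell cannot be told apart. To show what this means for each list, differences are also given after each library was shifted so that its mean log2 value of the 20 pan-microglia genes was equal. The 20 include Csf1r, Ctss, Tyrobp, C1qa, C1qb and C1qc. Some of these are also members of lists below, and their scaled values are not independent of the shift. This pan-microglia scaling moved the median of all genes to 0.70 and left 10851 genes higher and 219 lower (98.0% higher against 57.1%); quantile normalization gave 40.5% higher. Both are used below wherever they turn a direction.

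**Figure D1:**
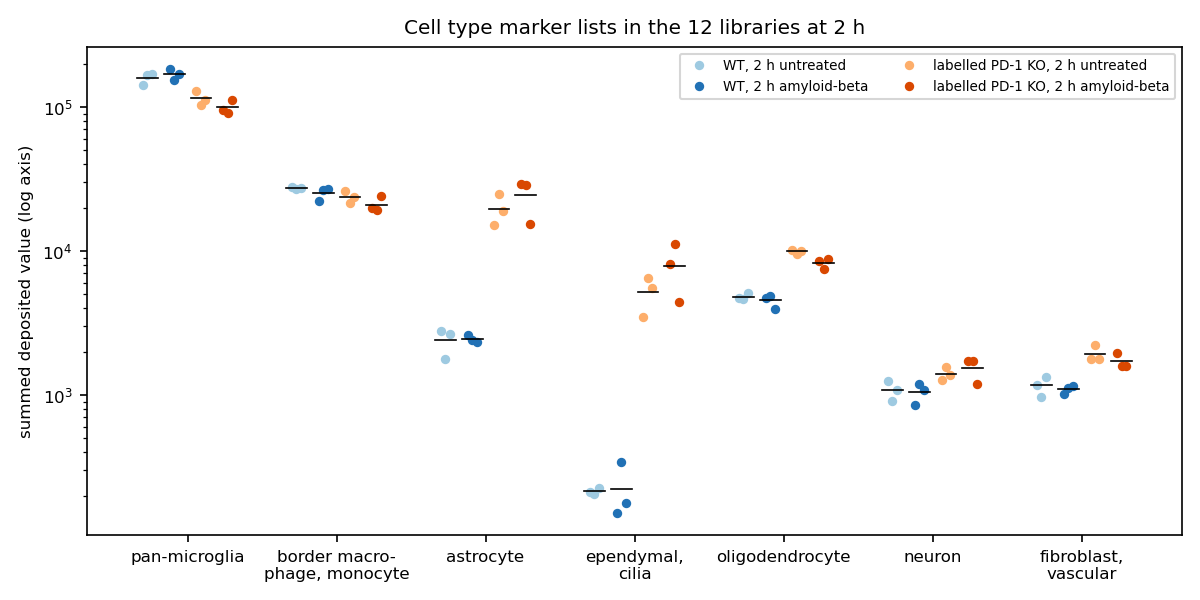
Summed deposited values (log axis) of 7 lists of cell type markers in the 12 libraries at 2 h; each point is a library and each line a group mean. With amyloid-beta, the pan-microglia sum is 155000 to 183000 in libraries labelled WT and 91100 to 111000 in those labelled PD-1 KO, and the astrocyte and cilia sums differ in the opposite direction.

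Antiviral genes of the interferon response were lower in libraries labelled PD-1 KO. Of 58 antiviral effector genes tested, 51 were lower and 0 higher, against 16.7% of all genes lower, with a median of -1.25. In 51 of 58 genes all 3 libraries labelled PD-1 KO lay below all 3 labelled WT, against 19% of all genes (43.2% of all genes had no overlap in either direction). With pan-microglia scaling the median was -0.57, with 33 lower and 4 higher (Apobec3, Tdrd7, Tor3a and Trim25). Quantile normalization gave a median of -1.47 with 54 lower. Leaving out any 1 of the 6 libraries left 48 or 49 lower.

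Promoters of 4 genes are shown for the element that interferon-induced promoters are known for, which was present in higher as well as lower genes. The sequences are the 150 bases before the RefSeq start on the gene's strand (GRCm38.p6). Capitals mark the core of the interferon-stimulated response element, a pair of GAAA blocks with any 2 bases between them, on either strand (TTTC blocks on the other), with overlapping matches joined. Oas1a, Oas3 and Bst2 are among the lower genes; Gbp2, which was higher, was chosen after its value was seen.
Oas1a: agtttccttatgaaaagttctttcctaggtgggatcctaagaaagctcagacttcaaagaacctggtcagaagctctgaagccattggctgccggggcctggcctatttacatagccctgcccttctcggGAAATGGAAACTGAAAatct
Oas3: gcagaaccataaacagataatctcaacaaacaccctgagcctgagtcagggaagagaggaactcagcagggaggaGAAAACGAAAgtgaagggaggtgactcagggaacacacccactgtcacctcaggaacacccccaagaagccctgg
Bst2: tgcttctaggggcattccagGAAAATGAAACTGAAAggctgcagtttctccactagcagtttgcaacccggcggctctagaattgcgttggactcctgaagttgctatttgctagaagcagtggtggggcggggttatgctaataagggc
Gbp2: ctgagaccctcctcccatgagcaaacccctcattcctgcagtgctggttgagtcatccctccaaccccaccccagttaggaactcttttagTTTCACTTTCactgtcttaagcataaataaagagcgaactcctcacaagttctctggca
The regions are chr5:120907526-120907675 (minus strand) for Oas1a, chr5:120777660-120777809 (minus) for Oas3, chr8:71537473-71537622 (minus) for Bst2 and chr3:142620513-142620662 (plus) for Gbp2. Oas1a and Bst2 hold 2 overlapping matches each, and Oas3 and Gbp2 hold 1. The core was found within 250 bases before and 50 after the start in 22 of the 45 antiviral effectors that matched the promoter table (48.9%). It was found in 1131 of all 32851 promoters (3.44%), in 6.73% of promoters of genes that were lower and in 3.42% of those that were higher. A match describes letters in a window and is not a binding site.

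Oas3, Oas1a and Oasl2 belong to the oligoadenylate synthetase family, whose enzymes sense double-stranded RNA and activate RNase L. Oas3 had values of 148, 250 and 259 in libraries labelled WT and 8.61, 1 and 4.83 in those labelled PD-1 KO (difference -5.47 ± 0.52, adjusted p = 3.84e-09). Replicate 2 of the latter lay at the floor, so the size of this fold depends in part on the floor. Oasl2 had values of 1030, 1440 and 1370 against 213, 141 and 168 (-2.88 ± 0.24, adjusted p = 4.85e-10). Oas1a had values of 1380, 1320 and 1360 against 326, 265 and 356 (-2.11 ± 0.18, adjusted p = 4.74e-10). In each of these genes every library labelled WT lay above every library labelled PD-1 KO. Oas1a and its near-identical copy Oas1g share sequence, and how reads were split between them is not known.

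Other effectors showed the same order of libraries. Zbp1, a sensor of Z-form nucleic acid that can start necroptosis, had values of 172, 260 and 238 against 17.2, 20.1 and 16.9 (-3.54 ± 0.32). Mx1, a dynamin-like GTPase that blocks viral replication, had values of 113, 249 and 211 against 9.57, 4.02 and 20.5 (-4.12 ± 0.41). Ifi27l2a had values of 661, 670 and 704 against 86.1, 58.2 and 73.6 (-3.22 ± 0.32). No library labelled PD-1 KO reached the lowest library labelled WT in these genes. Isg15, a ubiquitin-like protein joined to other proteins during the response, had values of 204, 230 and 264 against 47.8, 42.2 and 32.6 (-2.49 ± 0.29). Ly6e, a membrane protein that limits viral entry, had values of 1590, 2320 and 1900 against 405, 275 and 361 (-2.48 ± 0.21). Bst2, which tethers budding virus, had values of 2400, 2330 and 2200 against 750, 741 and 807 (-1.59 ± 0.18). The replicate spread of Bst2 was small beside the difference in both groups. The 7 members that did not pass ran from -0.78 (Oas1b) to 0.61 (Ifitm1).

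In the relay that carries the interferon signal most genes were lower in the values as deposited, and some were higher. Irf7 (chromosome 7, 141262706 to 141266481, GRCm38) had values of 369, 447 and 392 in libraries labelled WT and 54.5, 38.1 and 54.3 in those labelled PD-1 KO (-3.03 ± 0.25, adjusted p = 4.25e-10). Stat2 differed by -1.41 ± 0.13 and Irf9 by -1.19 ± 0.16. Usp18, a protease that removes Isg15 and restrains the receptor, had values of 218, 239 and 231 against 36.4, 28.1 and 30.2 (-2.83 ± 0.28). These 4 genes stayed lower past the threshold with pan-microglia scaling. The receptor chain Ifnar1 had overlapping values of 1880, 1740 and 1650 against 1590, 1540 and 1730 and did not pass (-0.12 ± 0.09, adjusted p = 0.299), and turned to 0.57 with pan-microglia scaling and 0.03 with quantile normalization. The other chain, Ifnar2, differed by -0.50 ± 0.09 and passed. Over the whole relay 11 of 17 genes were lower and 3 higher (median -0.36), but with pan-microglia scaling 10 were higher and 4 lower (median 0.33). The 3 that were higher were Stat3 and the feedback inhibitors Socs1 (1.17 ± 0.38) and Socs3 (1.40 ± 0.27). Socs1 did not pass without replicate 1 (1.11) or 3 (0.92) of the WT group, with quantile normalization (0.06), with voom or with only the groups compared in the fit.

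Among 8 interferon regulatory factors, 6 were lower and 0 higher (median -0.53), with 2 lower and 3 higher under pan-microglia scaling (median 0.15). Apart from Irf7 and Irf9, the differences were smaller. Irf5, which acts downstream of Toll-like receptors, had values of 2880, 2510 and 2230 against 1550, 1640 and 1870 (-0.59 ± 0.09), and Irf8, required for microglial development, differed by -0.48 ± 0.10. Both turned with pan-microglia scaling, Irf5 to 0.10 and Irf8 to 0.21. Among 17 genes that sense nucleic acid or relay that signal, 9 were lower and 2 higher (median -0.39; 2 lower and 8 higher, median 0.29, with pan-microglia scaling). Dhx58 (-2.09 ± 0.27) and Ddx58 (-1.17 ± 0.15), cytosolic sensors of viral RNA that interferon itself induces, were lower under both. Ikbke, a kinase upstream of Irf3 and Irf7, was higher, with values of 301, 441 and 392 against 731, 677 and 871 (1.02 ± 0.15). The genes of the interferons Ifnb1, Ifna4 and Ifng are not in the table and were not analysed here.

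**Figure D2:**
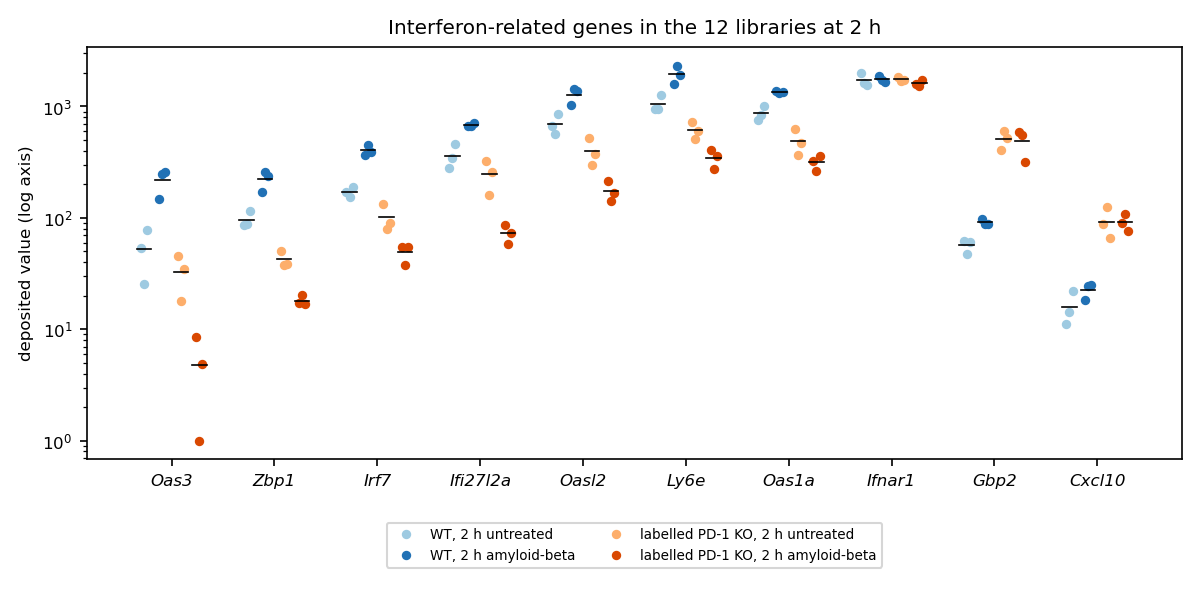
Deposited values (log axis) of 10 interferon-related genes in the 12 libraries at 2 h, by genotype label and treatment; each point is a library and each line a group mean. With amyloid-beta, the libraries labelled WT lie highest and those labelled PD-1 KO lowest from Oas3 to Oas1a, while Ifnar1 overlaps and Gbp2 and Cxcl10 are higher in libraries labelled PD-1 KO.

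The interferon-inducible GTPases, which attack the vacuoles of intracellular microbes, went both ways. Of 12 tested, 4 were higher and 5 lower, and their median was 0.12 as deposited, -0.31 with quantile normalization and 0.81 with pan-microglia scaling (6 higher, 1 lower). Gbp2 had values of 96.9, 88.1 and 89 in libraries labelled WT and 587, 550 and 319 in those labelled PD-1 KO (2.35 ± 0.21). Gbp5 had values of 4.27, 10.1 and 5.57 against 114, 120 and 50.7 (3.62 ± 0.44). Irgm1 had values of 500, 563 and 587 against 243, 211 and 261 (-1.21 ± 0.14). The GTPases that matched the promoter table, 7 of them, all held the element core, including the higher Gbp2, Gbp3 and Gbp5 and the lower Igtp, Irgm1 and Irgm2. Irgm2 did not pass without replicate 3 of the PD-1 KO label or replicate 2 of the WT group. The guanylate-binding proteins lie in a cluster on chromosome 3 and elsewhere. Some of them are similar in sequence, and the split of reads among those is uncertain.

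Antigen presentation on MHC class I, also interferon-inducible, was lower: 18 of 25 genes passed in that direction and 0 in the other, with a median of -0.77. With pan-microglia scaling the median was -0.08, with 6 lower and 7 higher. H2-T23, a non-classical class I molecule that presents to natural killer cells, had values of 2400, 2270 and 2060 against 652, 526 and 758 (-1.81 ± 0.20). B2m, the light chain common to class I molecules, had values of 24800, 30600 and 31000 against 12500, 13600 and 13100 (-1.13 ± 0.12). Tap1, which pumps peptides to them, differed by -1.01 ± 0.12. H2-T23, B2m and Tap1 remained lower past the threshold with pan-microglia scaling, at -1.13, -0.45 and -0.32. The H2 genes are similar in sequence, and their reads may be split between copies. Of the checkpoint ligands, Lgals9, which encodes galectin-9, had values of 1790, 1810 and 1720 against 508, 426 and 491 (-1.90 ± 0.15).

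The interferon difference was larger with amyloid-beta than without it. The genotype difference at 2 h with amyloid-beta was set against that at 2 h without, as an interaction over the 12 libraries at 2 h within the fit. It passed for 7 genes, all lower (0.051% of 13722), with 0 higher; 663 genes had an unadjusted p under 0.05. The 7 were the oligoadenylate synthetase genes Oas1a, Oas3 and Oasl2, and Irf7, Ly6e, Zbp1 and Ifi27l2a. Of the 58 antiviral effectors, 57 had a negative interaction and 6 passed, with a median of -0.79. Without amyloid-beta, Irf7 had values of 170, 155 and 190 in libraries labelled WT and 134, 79.7 and 90 in those labelled PD-1 KO (interaction -2.24 ± 0.35). Its treated libraries lay above the untreated ones under the WT label and below them under the PD-1 KO label. Zbp1 went from 86.2, 87.9 and 115 to 172, 260 and 238 in libraries labelled WT, and from 50.4, 37.8 and 38.9 to 17.2, 20.1 and 16.9 in those labelled PD-1 KO. Summed over the 58 effectors, libraries labelled WT ran from 34000 to 39700 without and from 43400 to 53400 with amyloid-beta. Those labelled PD-1 KO ran from 24400 to 30900 without and from 20400 to 23400 with it, so treated and untreated libraries did not overlap under either label. With pan-microglia scaling 6 genes passed, all lower, and the interaction median of all genes moved from 0.01 to 0.30. The astrocyte sum of the libraries labelled PD-1 KO overlapped between untreated (15100 to 24700) and treated (15300 to 29300). The pan-microglia sum also overlapped, at 143000 to 169000 and 155000 to 183000 under the WT label. Under the PD-1 KO label it was 104000 to 129000 and 91100 to 111000. The homeostatic sum overlapped under the WT label but not under PD-1 KO (50700 to 61200 and 44400 to 48000). The part of these sums in the interaction was not tested. With 1 library left out at a time, the count as deposited ran from 2 to 30, and Irf7 and Oas3 passed each time. Each of the other 5 lost its call without at least 1 of the 12 libraries. Between the labels 32.2% of genes passed at 2 h without amyloid-beta. Across all genes the difference itself was similar with and without amyloid-beta (Pearson correlation 0.93 over 13722 genes, which are not independent replicates; no library enters both differences).

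The difference at 2 h with amyloid-beta was then set against that at 8 h with amyloid-beta. It passed for 24 genes with a positive value (0.175%) and 183 with a negative one (1.33%; 1.51% in either direction). Pan-microglia scaling turned this balance to 636 positive and 73 negative and moved the median of all genes to 0.43. With 1 library left out the positive count ran from 9 (without replicate 2 of the PD-1 KO label at 2 h) to 78 (without replicate 2 of the WT group at 2 h) and the negative count from 93 (the former) to 205. As deposited, 30 of the 58 antiviral effectors (median -0.96) were among the negative genes and 0 among the positive. With pan-microglia scaling these were 18 and 0 (median -0.52), and with quantile normalization 19 and 0 (median -0.92). Usp18 had values of 44.6, 27.9 and 22.9 in libraries labelled WT at 8 h and 33.7, 35.5 and 42 in those labelled PD-1 KO, which overlap, whereas at 2 h they were far apart (difference of differences -3.09). Irf7 at 8 h had values of 55.2, 55.9 and 62.5 against 45.7, 46.5 and 64.8 (-2.87 for the difference of differences). The groups thus overlapped at 8 h for both genes. Ifit3, an antiviral protein, went further: lower at 2 h (-1.56 ± 0.31) and higher at 8 h (1.67). This contrast and the preceding one share the 6 libraries at 2 h with amyloid-beta and are not independent. The sample numbers of the 8 h libraries form a run apart from those at 2 h. Whether they were prepared separately is not given, and time cannot be told apart from such a difference. Marker sums of the 8 h groups are not reported here, and the part of cell mix was not tested.

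Some genes outside the interferon response differed between 2 h and 8 h as well. Il1b, the inflammatory cytokine interleukin-1 beta, had values of 19.9, 24.3 and 23.7 in libraries labelled WT and 16.3, 20.1 and 37.4 in those labelled PD-1 KO at 2 h, which overlap (0.03 ± 0.33, adjusted p = 0.952; -0.83 with quantile normalization). At 8 h they were 23.3, 19.1 and 18.6 against 123, 112 and 127 (2.52), and the difference of differences was -2.49 ± 0.47. Cx3cr1, the fractalkine receptor of microglia, had values of 1610, 1470 and 1710 against 1230, 1170 and 1210 at 2 h (-0.41 ± 0.19, adjusted p = 0.0846) and 536, 618 and 656 against 1040, 1090 and 1210 at 8 h. The libraries labelled WT were thus above the others at 2 h and below them at 8 h; with pan-microglia scaling Cx3cr1 at 2 h turned to 0.28 without passing. Slc7a11, the cystine importer induced by the factor Nrf2, had values of 182, 139 and 196 against 763, 827 and 563 at 2 h and 488, 562 and 609 against 664, 730 and 599 at 8 h. Its difference was therefore larger at 2 h (2.05) than at 8 h (0.27).

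**Figure D3:**
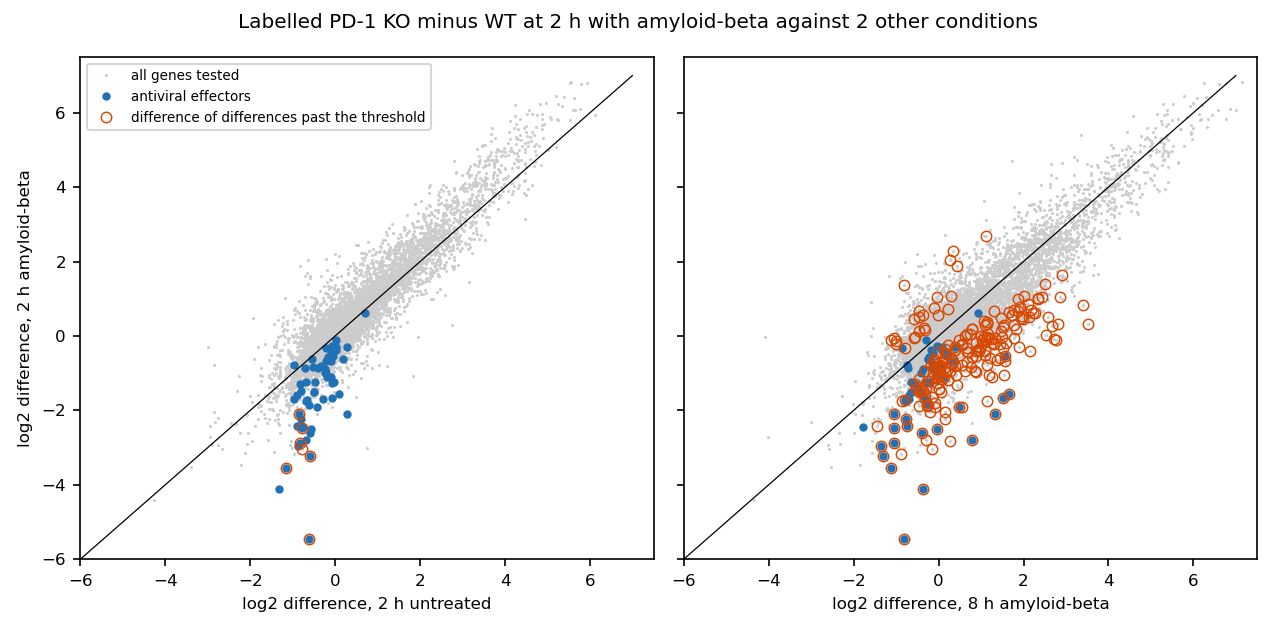
Log2 difference of each of 13722 genes at 2 h with amyloid-beta (vertical) against the difference at 2 h untreated (left) and at 8 h with amyloid-beta (right); the line marks equality. Blue points are antiviral effectors and open circles genes whose difference of differences passed (7 on the left, 207 on the right), most of them below the line.

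Chemokines, which recruit other immune cells, were mostly higher at 2 h with amyloid-beta in libraries labelled PD-1 KO. Of 15 tested, 9 were higher and 2 lower (1 to 3 lower when libraries were left out in turn), against 22.2% and 16.7% of all genes, with a median of 1.26. The median stayed positive with quantile normalization (0.85) and pan-microglia scaling (1.94). Summed over the list, libraries labelled WT ran from 6930 to 7990 and those labelled PD-1 KO from 8700 to 10700. Without amyloid-beta the sums at 2 h were 6640 to 7720 and 9530 to 10400, so the labels were apart there too. Cxcl10, itself an interferon target that attracts T cells, had values of 18.5, 24.3 and 25 in libraries labelled WT and 89.9, 108 and 76 in those labelled PD-1 KO (1.97 ± 0.26). It went opposite to the antiviral effectors. Cxcl2 had values of 58.4, 60.8 and 33.4 against 209, 245 and 461 (2.52 ± 0.33), and Cxcl1 had 9.97, 6.08 and 5.57 against 64.1, 26.1 and 71.2 (2.65 ± 0.39); both attract neutrophils. Ccl2, which attracts monocytes, had values of 17.1, 29.4 and 44.5 against 116, 106 and 60.3 (1.65 ± 0.49) and did not pass without replicate 1 of the WT group (1.30, adjusted p = 0.0641). Ccl4, typical of activated microglia, was lower, with values of 1310, 1320 and 1010 against 652, 564 and 842 (-0.83 ± 0.23), but did not pass with pan-microglia scaling (-0.15). Astrocytes also express several of these chemokines. The astrocyte sums given above moved in the same direction, and their part in the chemokine difference was not tested. Among libraries labelled PD-1 KO, replicate 3 had the lowest astrocyte sum (15300). It was lowest for Cxcl10 and Ccl2 and highest for Cxcl1 and Cxcl2.

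Cytokines and their receptors were split, with 5 of 20 higher and 6 lower, against 22.2% and 16.7% of all genes. Their median was -0.04, or 0.64 with pan-microglia scaling (13 higher and 0 lower). Without replicate 3 of either group 3 were higher. Csf1, the growth factor on which microglia depend, had values of 231, 290 and 237 against 1080, 807 and 813 (1.83 ± 0.16). Its receptor Csf1r had values of 13200, 11100 and 12300 against 8240, 7520 and 9610 (-0.54 ± 0.11), moving to -0.06 with quantile normalization and 0.15 with pan-microglia scaling. Tnf had values of 641, 581 and 438 against 633, 705 and 1050, which overlap; it passed (0.51 ± 0.15, adjusted p = 0.00715) but not without replicate 3 of either group (0.29 and 0.35). In the NF-kB list, 5 of 18 were higher and 1 lower (median 0.24), against 22.2% and 16.7% of all genes. The 5 included Traf1 (4.27, 11.1 and 5.57 against 90.9, 92.4 and 79.6, difference 3.56 ± 0.45). They also included the inhibitor Tnip3 (221, 209 and 313 against 593, 492 and 635, difference 1.22 ± 0.15). Without replicate 2 of the PD-1 KO label 9 were higher, and with pan-microglia scaling all 18 were (median 0.92). Of 20 immediate early genes, which respond within minutes of a stimulus, 9 were higher and 3 lower (median 0.18), with 6 lower without replicate 3 of the PD-1 KO label, and 15 higher and 0 lower (median 0.86) with pan-microglia scaling. Fos was higher (594, 545 and 470 against 950, 998 and 1240) and Egr1 lower (388, 525 and 456 against 282, 291 and 329; -0.59 ± 0.11, turning to 0.09 with pan-microglia scaling).

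Several genes of microglial identity were lower, some by more than the pan-microglia median. Of 19 homeostatic genes 11 were lower and 2 higher (median -0.54; 6 lower and 9 higher, median 0.15, with pan-microglia scaling). Sparc, a member of this list, was higher, with differences of 2.21 to 3.05 over the alternative settings. Olfml3, a secreted matrix protein, had values of 933, 566 and 806 in libraries labelled WT and 30.6, 44.2 and 30.2 in those labelled PD-1 KO (-4.41 ± 0.22). Fcrls, an Fc receptor-like protein, had values of 12500, 10400 and 12000 against 2230, 1930 and 2350 (-2.43 ± 0.18). Gpr34, a lysophospholipid receptor, had values of 891, 855 and 1090 against 233, 213 and 259 (-2.00 ± 0.22). These 3 genes remained lower past the threshold under every scaling. By contrast P2ry12, the purine receptor used to mark resting microglia, was low and overlapping (71.2, 120 and 97.4 against 87.1, 98.4 and 74.8). Tmem119, another such marker, had values of 51.3, 42.5 and 40.3 against 50.7, 32.1 and 51.9. Neither passed (-0.12 ± 0.20 and -0.02 ± 0.26), and both turned with pan-microglia scaling (0.56 and 0.66).

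Of 24 genes of the disease-associated state that microglia adopt around plaques, 15 were lower and 3 higher (median -0.49; 6 lower and 12 higher, median 0.20, with pan-microglia scaling). Trem2, the lipid and amyloid receptor needed for that state, had values of 24100, 16200 and 16700 against 10700, 10300 and 12500 (-0.75 ± 0.15). With pan-microglia scaling it came to -0.07 and did not pass. Apoe, its lipoprotein ligand, had values of 222000, 165000 and 144000 against 87100, 81400 and 90500 (-1.01 ± 0.18), but did not pass with quantile normalization (-0.25). Gpnmb had values of 58600, 48200 and 50900 against 18300, 20200 and 23600 (-1.35 ± 0.12). In all 3 genes the lowest library labelled WT was above the highest labelled PD-1 KO.

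Receptors for amyloid and debris went both ways, though the higher ones were no more frequent than among all genes. Of 34 tested, 14 were lower and 6 higher (median -0.20), against 16.7% and 22.2% of all genes. With pan-microglia scaling 23 were higher and 5 lower (median 0.48). Cd36, a scavenger receptor that binds fibrillar amyloid-beta, had values of 43200, 39900 and 53400 against 35700, 39500 and 40100 (-0.23 ± 0.14). It did not pass (adjusted p = 0.199) and turned to 0.45 with pan-microglia scaling and 0.14 with quantile normalization. The largest differences in this list were in a pair of receptors of the Cd300 family on chromosome 11, at 114982274 to 114989922 and 115116214 to 115133992 (GRCm38). Cd300ld was lower (616, 552 and 697 against 68.9, 70.3 and 83.2; -3.05 ± 0.16) and Cd300lf higher (19.9, 25.3 and 15.3 against 305, 375 and 360; 4.06 ± 0.21). AF251705, among the largest decreases of well-measured genes, had values of 2550, 1830 and 2060 against 258, 287 and 293 (-2.93 ± 0.11). The Cd300 genes are similar in sequence, and reads could have been split between copies. Marco, a scavenger receptor, was higher, with values of 61.3, 51.7 and 55.7 against 250, 259 and 312 (2.26 ± 0.24). Fcgr4, an activating receptor for IgG, was lower, with values of 644, 514 and 646 against 188, 191 and 234 (-1.55 ± 0.14).

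Most genes of the machinery behind uptake were lower in the values as deposited. Of 23 genes of phagocytic signalling and the actin motor, 17 were lower and 1 higher (median -0.47), but with pan-microglia scaling 12 were higher and 0 lower (median 0.21). Myo1f, a myosin of immune cells, had values of 8710, 6760 and 7620 against 4150, 3810 and 4960 (-0.84 ± 0.11). Lyn, a Src-family kinase below Fc receptors, had values of 2870, 2460 and 2690 against 1600, 1650 and 1800 (-0.67 ± 0.10, turning to 0.02 with pan-microglia scaling). Of 40 lysosomal genes, 34 were lower and 4 higher (median -0.53; 11 lower and 13 higher, median 0.16, with pan-microglia scaling). Ctss, the cysteine protease cathepsin S, had values of 18400, 16300 and 18300 against 7960, 8280 and 9300 (-1.06 ± 0.11). Hexa, a subunit of beta-hexosaminidase, had values of 31700, 24000 and 24200 against 11700, 11500 and 13800 (-1.10 ± 0.13). Cd68, a lysosomal membrane protein of phagocytes, had values of 37300, 32200 and 33800 against 17400, 18500 and 20600 (-0.87 ± 0.11). Ctss, Hexa and Cd68 remained lower past the threshold with pan-microglia scaling, at -0.37, -0.42 and -0.19, but Ctss is itself among the genes that set this scaling. Beside these lists, the pan-microglia list had a median of -0.68 in the same libraries. It shares Ctss with the lysosomal list and Tyrobp with the disease-associated list. With quantile normalization the medians moved to -0.17 for the disease-associated list (9 lower), -0.22 for phagocytic signalling (13 lower) and -0.25 for the lysosome (23 lower).

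Complement genes were split. The C1q chains, made by microglia, were lower: C1qa had values of 12500, 11000 and 11600 in libraries labelled WT and 5230, 4710 and 5850 in those labelled PD-1 KO (-1.15 ± 0.18). C2, a protease of the classical pathway, had values of 408, 351 and 373 against 50.7, 36.1 and 66.4 (-2.90 ± 0.22). C3, the central component, which astrocytes also make, was higher, with values of 718, 849 and 785 against 9040, 7410 and 5680 (3.21 ± 0.23). C4b had values of 19.9, 52.7 and 23.7 against 1040, 1120 and 542 (4.83 ± 0.44). For C3 and C4b the library labelled PD-1 KO with the lowest value was replicate 3, which also had the lowest astrocyte sum, 15300. The part of astrocytes in the complement differences was not tested. Over the list 5 of 17 genes were higher and 5 lower (median 0.23), against 22.2% and 16.7% of all genes. The counts were 8 and 4 under quantile normalization and 11 and 4 (median 0.91) under pan-microglia scaling.

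**Figure D4:**
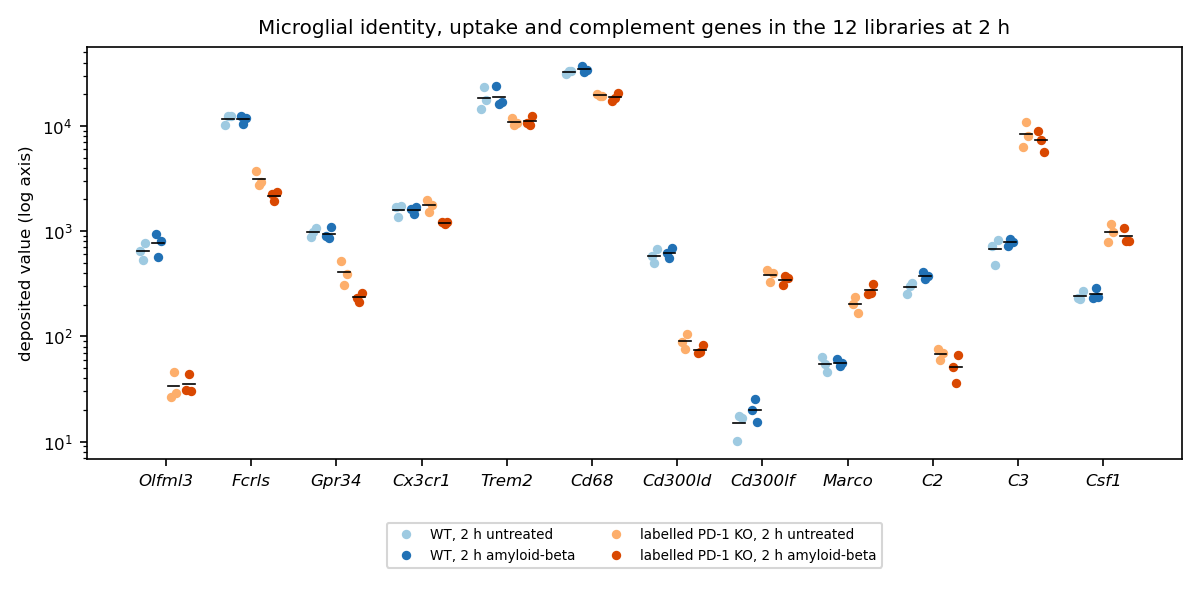
Deposited values (log axis) of 12 genes of microglial identity, uptake and complement in the 12 libraries at 2 h, by genotype label and treatment; each point is a library and each line a group mean. Olfml3, Fcrls, Gpr34, Cd300ld and C2 are lower and Cd300lf, Marco, C3 and Csf1 higher in libraries labelled PD-1 KO, with and without amyloid-beta.

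Most genes of cytosolic ribosomal proteins, and fewer of respiration, were lower by small steps in the values as deposited. Of 79 cytosolic ribosomal protein genes 67 were lower and 0 higher (median -0.47), with 0 lower and 19 higher under pan-microglia scaling (median 0.21). The count of lower genes was 23 without replicate 1 of the WT group and 42 without replicate 1 of the PD-1 KO label. With quantile normalization it was 21 of 79 (median -0.23), where 3399 of all 13722 genes were lower. Rps7 had values of 6110, 4220 and 5200 against 2770, 3110 and 3110 (-0.77 ± 0.13). Of 79 nuclear genes of oxidative phosphorylation 27 were lower and 1 higher (median -0.29), with 60 higher and 0 lower under pan-microglia scaling (median 0.40). That count of lower genes was 5 without replicate 1 of the WT group, 49 without its replicate 2 and 17 without replicate 1 of the PD-1 KO label. With quantile normalization 15 were lower and 1 higher (median -0.24). Targets of Nrf2, the factor that answers oxidative stress, were higher in 10 of 21 cases and lower in 2 (median 0.18; 1 to 3 lower when libraries were left out in turn). With pan-microglia scaling 20 were higher and 0 lower (median 0.86). Nqo1, a quinone reductase, had values of 49.9, 31.4 and 27.8 against 123, 145 and 122 (1.85 ± 0.26). Hmox1, which degrades heme, had values of 30400, 17600 and 20500 against 27800, 31700 and 32600, which overlap, and passed narrowly (0.46 ± 0.15, adjusted p = 0.0144). It did not pass without replicate 2 of the PD-1 KO label (0.44) or replicate 2 (0.29) or 3 (0.40) of the WT group. Of 16 heat shock genes 9 were higher and 0 lower (median 0.28), among them Hsp90aa1 (2660, 3610 and 4340 against 6910, 8150 and 5930; 1.0 ± 0.16). The count was 5 without replicate 1 of the PD-1 KO label and 16 with pan-microglia scaling.

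Oligodendrocyte markers went both ways. Of 14 tested, 9 were higher and 3 lower (median 1.13; 9 and 1 with pan-microglia scaling). Mag, a myelin adhesion protein, was higher, with values of 57, 46.6 and 34.8 against 292, 241 and 317 (2.61 ± 0.24). Pdgfra, the receptor that marks oligodendrocyte precursors, was lower, with values of 567, 1030 and 523 against 284, 151 and 183 (-1.75 ± 0.37). The other 2 that were lower, Olig2 (-0.80 ± 0.21) and Sox10 (-0.93 ± 0.20), are transcription factors of the lineage. At 8 h with amyloid-beta Pdgfra had values of 44.6, 38.2 and 77.3 in libraries labelled WT and 70.6, 161 and 127 in those labelled PD-1 KO. These groups overlapped, and the difference was positive (1.14).

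**Figure D5:**
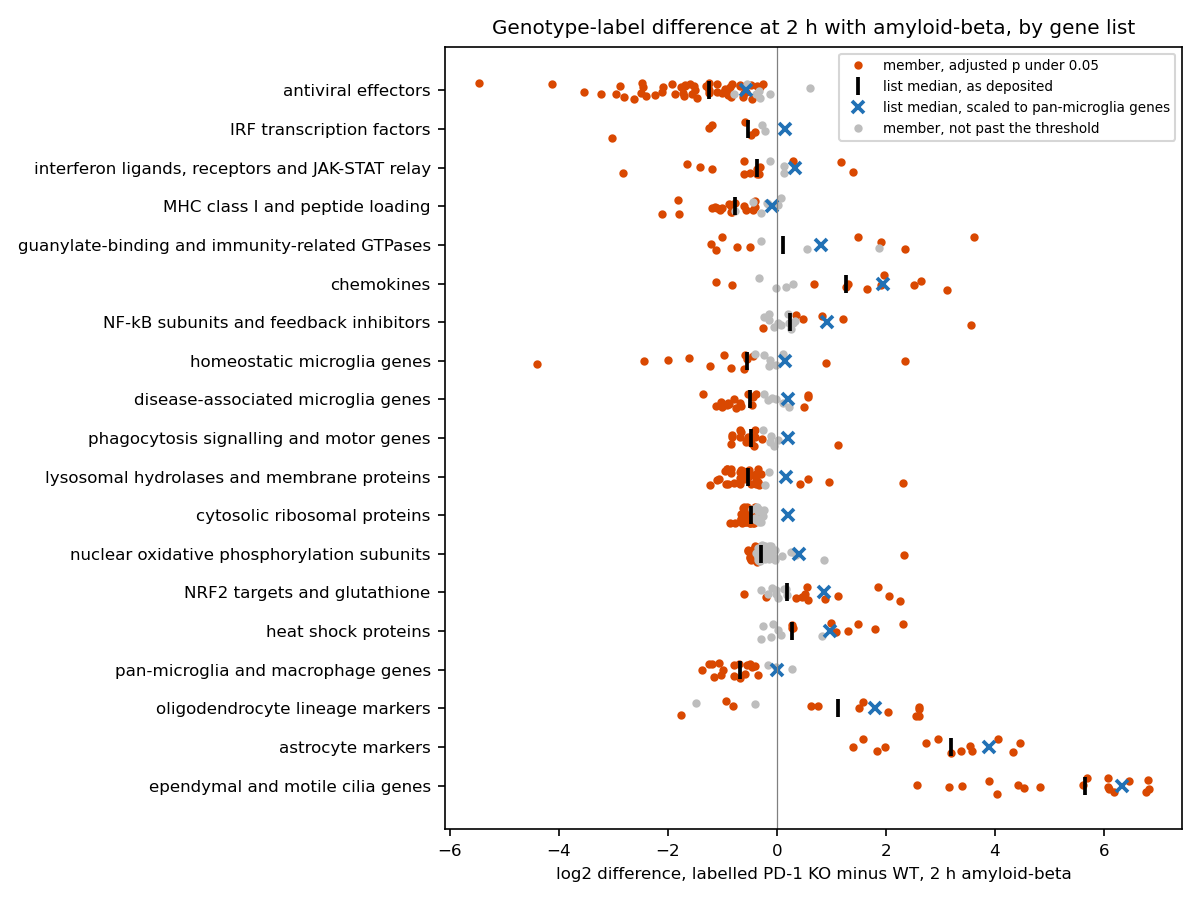
Log2 difference (libraries labelled PD-1 KO minus WT, 2 h with amyloid-beta) of each member of 19 gene lists; red points passed the threshold and grey points did not, black bars are list medians as deposited and blue crosses are medians with pan-microglia scaling. The antiviral effectors lie lowest, with medians of -1.25 and -0.57, and among the lists drawn the median changes sign between the scalings for the IRF factors, interferon relay, homeostatic, disease-associated, phagocytosis, lysosome, ribosome and oxidative phosphorylation lists.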

How the data were processed

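RNA from primary mouse microglia was sequenced in 30 libraries, 10 groups of 3. Per the submitters' processing notes, HISAT 0.1.5, Partek 6.6, R 3.0.2, DESeq2 and the mm10 build were used; the role of each, the counting program, its annotation and its use of strand are not given in the sources used here, so overlapping and near-identical genes are uncertain. The deposited table gives a signal value for each of 13788 genes in each library. The values show that the authors divided counts by a size factor and raised those below 1 to 1: dividing a library by its smallest step gave whole numbers for 100.0% of the values checked (tolerance 0.05, up to 5000 reads). Replicates were not duplicates: chi-square per gene between them was 3.15 to 8.98 in the treated PD-1 KO group at 2 h. In the treated WT group at 2 h it was 27.74 between replicates 1 and 2 and 18.78 between replicates 1 and 3. Between replicates 2 and 3 it was 5.4.

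Values were analysed as log2(value + 1). Genes reaching 10 in at least 3 libraries were kept (13722). The moderated test with intensity trend of limma 3.58.1 in R 4.3.3 was fitted to all 30 libraries, 1 mean per group (20 residual degrees of freedom), with Benjamini-Hochberg adjustment and a threshold of 0.05. All groups share the estimate of spread. Pdcd1 was compared by exact permutation with scipy 1.17.1. Limits of 3 reads cover counting error only. The fit was tested on simulated counts. Alternatives covered the pseudocount, the low-value filter, scaling, variance model, library weights, libraries in the fit, voom and leaving out each library. The text names genes by rule: the largest 10 increases and largest 10 decreases among genes that passed, with an average above the median and no overlap; up to 4 of each list by smallest p; a set of genes of interest; and, for the differences of differences, all that passed where 10 or fewer, otherwise the 8 largest each way. Not all of them are printed, and some results are not reported here. Outside the rule, Mx1, Isg15, Ifit3, Bst2, Gbp3, Igtp, Irgm2, Ifnar2, Socs1, Socs3, Stat3, C1qa, Olig2, Sox10, Oas1b, Oas1g, Ifitm1, Apobec3, Tdrd7, Tor3a and Trim25 were named after their values were seen. The members, lists and comparisons were chosen with earlier results of these data known. Promoters are from RefSeq (GRCm38.p6; matched by symbol, 10418 genes tested) and gene positions from the GRCm38 annotation. Figures were drawn with matplotlib 3.10.9.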

Additional observations from a re-analysis of the deposited data

Results flagged for a closer look

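The following genes had a genotype-label difference at 2 h with amyloid-beta that departed from the difference in another condition by a test of the departure itself (limma, adjusted p under 0.05). Against 2 h without amyloid-beta, the log2 difference of differences was -4.85 for Oas3, -2.64 for Ifi27l2a, -2.37 for Zbp1, -2.24 for Irf7, -2.06 for Oasl2, -1.70 for Ly6e and -1.26 for Oas1a.

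Against 8 h with amyloid-beta, it was negative for interferon-related genes: -4.65 for Oas3, -3.09 for Usp18, -2.87 for Irf7, -2.43 for Zbp1, -1.91 for Ifi27l2a, -1.84 for Oasl2 and -1.84 for Mnda, a member of the family of interferon-inducible nuclear proteins. It was -3.75 for Mx1, -3.23 for Ifit3, -2.45 for Isg15 and -1.60 for Oas1g. It was -1.48 for Sp100, -1.44 for Ly6e, -1.24 for Ddx58, -1.12 for Stat2 and -1.07 for Oas1a. The immunity-related GTPases Igtp and Irgm1 stood at -1.04 and -0.93, the peptide transporter Tap1 at -0.88 and the antiviral gene Tor3a at -0.70. Among other genes, it was -2.49 for Il1b, -1.60 for the chemokine Ccl4, -1.53 for Top2a, a topoisomerase of dividing cells, -1.29 for Cx3cr1 and -0.99 for Fcrls. In the oligodendrocyte lineage it was -2.89 for Pdgfra, -1.54 for Sox10, -1.19 for Olig2 and -1.83 for Cntn1, a neural adhesion protein. It was positive for Slc7a11 (1.78), Hmox1 (1.05), Gclm (0.92), which makes glutathione, Slc40a1 (0.87), the iron exporter, and Cd36 (0.76).

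Slc40a1 had values of 3410, 3540 and 3900 in libraries labelled WT and 3080, 3160 and 3580 in those labelled PD-1 KO at 2 h, and 5840, 5950 and 6460 against 3140, 2910 and 2980 at 8 h. Cd36 had values of 43200, 39900 and 53400 against 35700, 39500 and 40100 at 2 h, and 77500, 88500 and 84600 against 45500, 39600 and 40600 at 8 h. In both genes it was the libraries labelled WT that stood apart at 8 h.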

How the results depend on the processing

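For the comparison at 2 h with amyloid-beta, pan-microglia scaling gave 10851 higher and 219 lower genes, fitting only the groups compared gave 1281 lower and array weights gave 3474 lower. The other settings tried kept both counts within 1.5 times of 3051 and 2290, although TMM factors moved the share of higher genes to 54.1% and leaving the other groups out of the fit moved it to 65.1%. Leaving out 1 library gave 2527 to 3163 higher and 1734 to 2492 lower. For the difference with against without amyloid-beta (0 higher, 7 lower), 2 genes were lower without the intensity trend, 2 with voom on the recovered reads, and 263 were higher and 214 lower with array weights. Leaving out 1 of the 12 libraries gave 0 higher each time and 2 to 30 lower; the count was 2 without replicate 2 of the treated PD-1 KO group and 30 without replicate 1 of the treated WT group. For the difference against 8 h (24 higher, 183 lower), pan-microglia scaling gave 636 higher and 73 lower, array weights 711 and 939, and voom 118 lower; leaving out 1 library gave 9 to 78 higher and 93 to 205 lower. The cause of these shifts was not tested.

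Of the genes named, these changed sign. With quantile normalization Il1b came to -0.83, Cd36 to 0.14, Ifnar1 to 0.03, Slc40a1 to 0.07 and Ifitm1 to -0.38. With pan-microglia scaling, which adds about the same amount to every gene, Irf5 came to 0.10, Irf8 to 0.21, Egr1 to 0.09, Cx3cr1 to 0.28, P2ry12 to 0.56, Tmem119 to 0.66, Cd36 to 0.45, Lyn to 0.02, Csf1r to 0.15, Ifnar1 to 0.57, Ifnar2 to 0.18, Irgm2 to 0.18, Top2a to 0.64, Slc40a1 to 0.54, Apobec3 to 0.32, Tdrd7 to 0.42, Tor3a to 0.37 and Trim25 to 0.57. Array weights gave -0.06 for Cd274, -0.34 for Il1b, 0.22 for Tmem119 and 0.33 for Top2a, and voom gave -0.04 for Il1b and 0.03 for Tmem119. When libraries were left out, Tmem119 ran from -0.14 to 0.20, Il1b from -0.30 to 0.27, Top2a from -0.20 to 0.22 and P2ry12 from -0.32 to 0.05. Irgm2 did not pass without replicate 3 of the PD-1 KO label (-0.42, adjusted p = 0.08) or replicate 2 of the WT group (-0.45, adjusted p = 0.0605).

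The pseudocounts and the absence of a low-value filter changed no call among the named genes. The voom fit was chosen after seeing the data. The planned quasi-likelihood test on recovered reads was not run, because in some of the 30 libraries the floor hides up to 4 reads of a gene. No paired analysis was possible because the labels carry no replicate numbers, and those used here follow only the order of the samples. At the depth of these libraries, genes near the floor, such as Pdcd1 and Oas3 in 1 group, have folds that depend on it.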

Other observations

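Other gene groups also differed between the labels at 2 h with amyloid-beta. Among 28 collagens, laminins and matrix glycoproteins, 17 passed with higher and 1 with lower values under the PD-1 KO label (median 1.28; 0.84 with quantile normalization and 1.97 with pan-microglia scaling). Sparc, a secreted protein that binds collagen, is also on the homeostatic list above. It had values of 1100, 1120 and 1130 in libraries labelled WT and 7090, 6850 and 3910 in those labelled PD-1 KO (2.36 ± 0.24). Lcn2, a secreted iron-binding protein of reactive astrocytes and inflamed tissue, had values of 298, 121 and 149 against 3240, 3150 and 2130 (3.99 ± 0.32). S1pr3, a receptor for sphingosine 1-phosphate, differed by 4.25 ± 0.29 and Mlc1, a membrane protein of astrocyte endfeet, by 3.95 ± 0.33. The library labelled PD-1 KO with the lowest value in Sparc, Lcn2 and Gfap was replicate 3. A link between these genes and the astrocyte sum was not tested.

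Few genes of the cell cycle passed: 3 of 35 were higher and 6 lower (median -0.02; -0.44 with 14 lower under quantile normalization, 0.66 with 23 higher under pan-microglia scaling). Mcm6, a subunit of the replicative helicase, was lower, with values of 680, 532 and 623 against 182, 179 and 170 (-1.78 ± 0.14). Dynlt1b, a light chain of dynein, was lower as well (1360, 973 and 1160 against 240, 349 and 220; -2.12 ± 0.18); it has near-identical copies, and the split of reads among them is uncertain. The 11 neuron markers included 4 that passed as higher and 4 as lower (median -0.26; -1.17 with quantile normalization and 0.42 with pan-microglia scaling). Dcx, of migrating immature neurons, had values of 96.9, 201 and 166 against 69.8, 24.1 and 49.5 (-1.73 ± 0.30), and Stmn2, of growing axons, had 17.1, 17.2 and 23.7 against 85.1, 86.3 and 66.4 (1.99 ± 0.36).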
